A study of Mus musculus with 6 samples.

Results

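A group of 7 transcription factor genes that mark the identity of the ocular surface ectoderm were followed across the arrays: Pax6, the MEIS genes Meis1 and Meis2, the AP-2 genes Tfap2a, Tfap2b and Tfap2c, and the homeobox gene Barx2. Every probe that the array annotation gives to these 7 genes was taken, older symbols included, which gave 25 of the 45281 probes on the array. All 25 passed the filter on dim probes, and 23 of them were detected on all 6 arrays. Barx2 fell in the KO embryos with its brighter probe, and none of the other 6 genes passed with its brightest probe. A dim probe of Barx2 and one of Meis1 were detected on WT arrays alone, which is how they met the filter, so their calls are given as a description. Fitted values for Pax6, Meis1 and Meis2 were negative with every probe, while those of the AP-2 genes lay on both sides of 0.

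The arrays were Illumina BeadChips hybridised with amplified cDNA from the epithelium of the conjunctival fornix, where the lining of the eyelid turns back onto the eyeball. That is the tissue label, while the labels' extraction text speaks of prospective lens, and the tissue label was followed. The 3 KO embryos were Fgfr2 fx/fx and Le-Cre-positive, written Fgfr2-/- in the labels, and the 3 WT embryos were wild type. Both groups were at E14.5 on a mixed FVB and 129 background, with 1 embryo per array. The tissue was cut from frozen sections by laser, so neighbouring cells can be included. Le-Cre drives Cre recombinase in the ocular surface ectoderm from regulatory sequence of Pax6 itself. Only the KO embryos carried it, so an effect of the transgene and the loss of Fgfr2, a fibroblast growth factor receptor, cannot be told apart.

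Pax6 is the paired-box and homeobox factor on which eye formation depends, and it is expressed in the surface ectoderm that gives rise to lens, cornea and conjunctiva. MEIS proteins are homeodomain factors that bind DNA together with PBX partners, and in the mouse they act on an ectodermal enhancer of Pax6. AP-2 proteins bind GC-rich sites as dimers and are made in surface ectoderm and neural crest. Barx2 is made in the epithelium of the developing lacrimal gland and other ocular glands, and in the mouse it takes part in their branching.

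The KO arrays detected 34.2% to 34.9% of probes and the WT arrays 48.5% to 50.6%. Across tested items, KO arrays correlated with each other at 0.70 to 0.71, with WT arrays at 0.75 to 0.77, and WT arrays with each other at 0.94 to 0.96, so the KO arrays were less like each other than like the WT arrays. Of 10 surface epithelium markers, 9 were detected on each KO array and all 10 on each WT array, and their summed intensity was 12280 to 14960 in KO and 14950 to 16240 in WT. The sum hides a split list. Without overlap, 4 were lower in KO (Epcam, Krt8, Krt15 and Krt18, log2 fold changes -1.59, -1.90, -1.22 and -2.62) and 1 higher (Krt5, 0.66), against 17.2% and 11.3% of all tested items, and none was called. Of 10 periocular mesenchyme markers, 9 to 10 were detected on KO arrays and 6 to 8 on WT arrays, and their summed intensity was 3702 to 6748 in KO against 494 to 519 in WT. Their part in the results below was not tested. Meis and AP-2 genes are also active in mesenchyme and neural crest, and in such bulk samples fewer cells of a type and less RNA per cell cannot be told apart. Of the neural crest and melanocyte markers 1 to 2 of 6 were detected on KO arrays and 4 to 5 on WT arrays (summed intensity 214 to 256 and 630 to 934). Of the lens markers 1 to 2 of 10 were detected on KO arrays and 3 to 5 on WT arrays (107 to 507 and 146 to 269), with Cryaa, Crygc, Foxe3 and Lim2 detected on no array. Retina and pigment epithelium markers were detected for 0 to 2 of 8 genes on KO arrays and 0 to 1 on WT arrays, with summed intensities of 86.6 to 111 and 42.7 to 49.8. Summed erythroid markers were at 4606 to 4968 in KO against 470 to 684 in WT, with 3 to 4 of 5 detected in both groups. Leukocyte markers were at 26.1 to 699.9 against 237 to 512, with 0 to 1 of 5 detected on KO arrays and 4 to 5 on WT arrays. Among them Laptm5 read 9.42 in KO embryo B but 4.51 and 4.37 in A and C. Endothelium markers were at 56.1 to 206 against 27.4 to 39.8, with 1 of 5 detected on KO arrays and 0 to 1 on WT arrays. The targeted gene, Fgfr2, read 12.11, 12.34 and 12.30 in KO embryos A, B and C, against 12.16, 11.97 and 12.15 in WT with the brightest of its 4 probes, a log2 fold change of 0.16. The others had 0.86, without overlap, 0.68, and -0.90 with ILMN_2646078, which was detected on 0 of 3 KO and 3 of 3 WT arrays, and none of the 4 passed (adjusted p = 0.28 to 0.81 in limma with every probe tested). Whether they lie in the deleted part is not given in the sources used here, so they do not check the genotype.

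Levels below are background-corrected, quantile-normalised log2 intensities, and each log2 fold change is the mean of KO minus the mean of WT. A gene is represented by the brightest of its probes that passed the filter, and the other probes are taken from a second fit in which every probe was an item of its own. The adjusted p-values come from limma over all items of the fit, and an item was called at an adjusted p below 0.05. Levels of different probes were not compared, because each probe binds with its own strength.

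**Figure D1:**
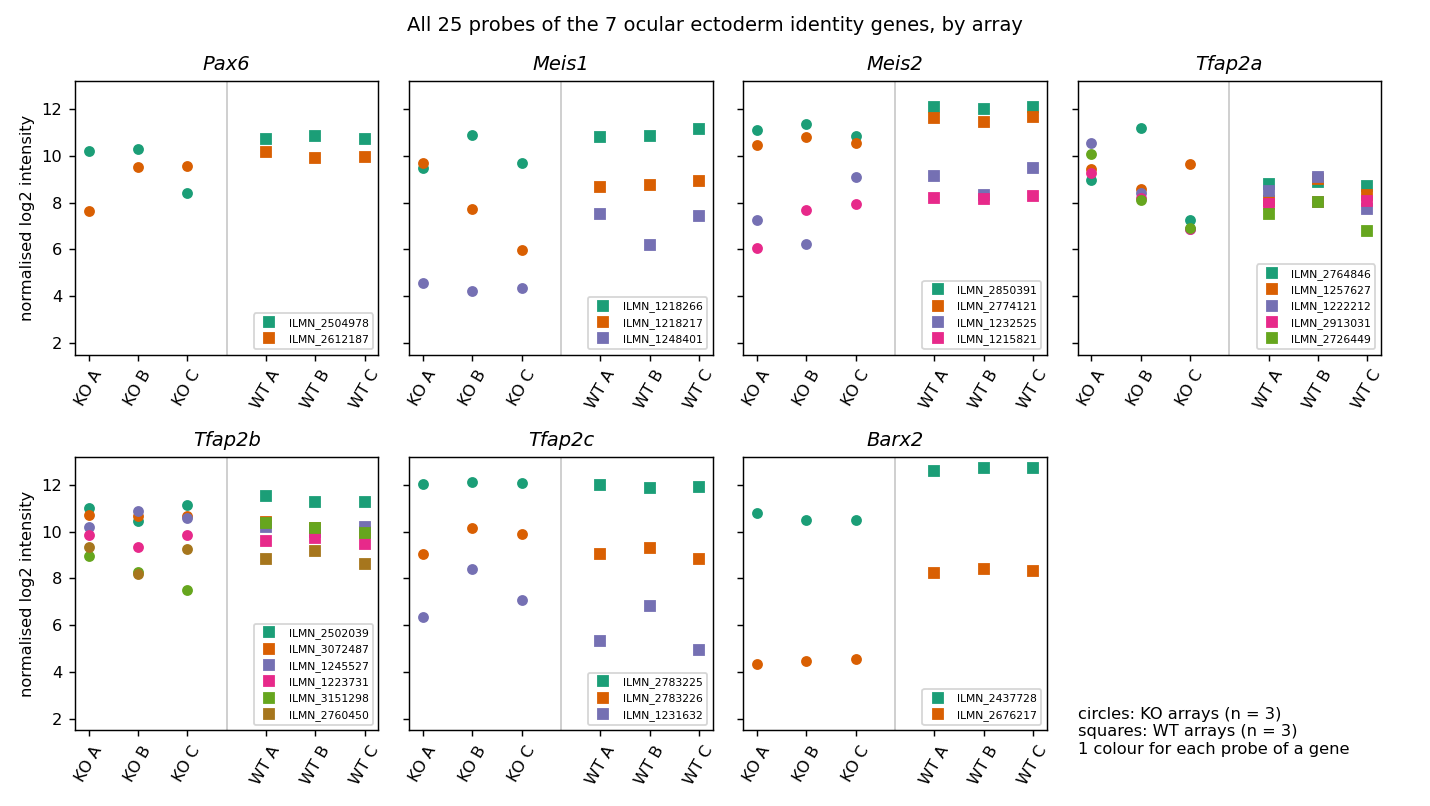
Normalised log2 intensity of each of the 25 probes on each array, with 1 panel a gene, KO arrays as circles on the left and WT arrays as squares on the right of each panel. Both Barx2 probes lie lower on the 3 KO arrays than on any WT array. For every gene except Barx2, the KO values of at least 1 probe spread over more than 1 log2 unit.

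Of the 7 genes, 1 fell, 0 rose and 6 did not pass, against 2.41% of all 13916 tested items called, 1.59% lower and 0.826% higher. KO and WT values did not overlap for 5 of the genes, with KO lower for Pax6, Meis2, Tfap2b and Barx2 and higher for Tfap2c. Among all tested items the groups did not overlap, with KO lower, for 17.2%, and with KO higher for 11.3%. The median log2 fold change of the 7 genes was -0.90, against -0.09 over all tested items. Of the 25 probes, 3 fell and 0 rose, both Barx2 probes and 1 Meis1 probe, of which the brighter Barx2 probe alone was detected on any KO array, against 2.06% of the 20853 kept probes called, 1.43% lower and 0.623% higher. Groups did not overlap for 10 probes with KO lower and for 3 with KO higher, against 17.4% and 10.1% of all kept probes. Without scaling between arrays 6 of the probes were called lower, and none were when WT replicate A, B or C was left out, where the fit over 1 probe a gene called 12 to 28 items in place of 336. In 22 of the 25 probes the KO embryos varied more than the WT embryos, as they did for the median tested item, with an SD of 0.80 in KO and 0.30 in WT.

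**Figure D2:**
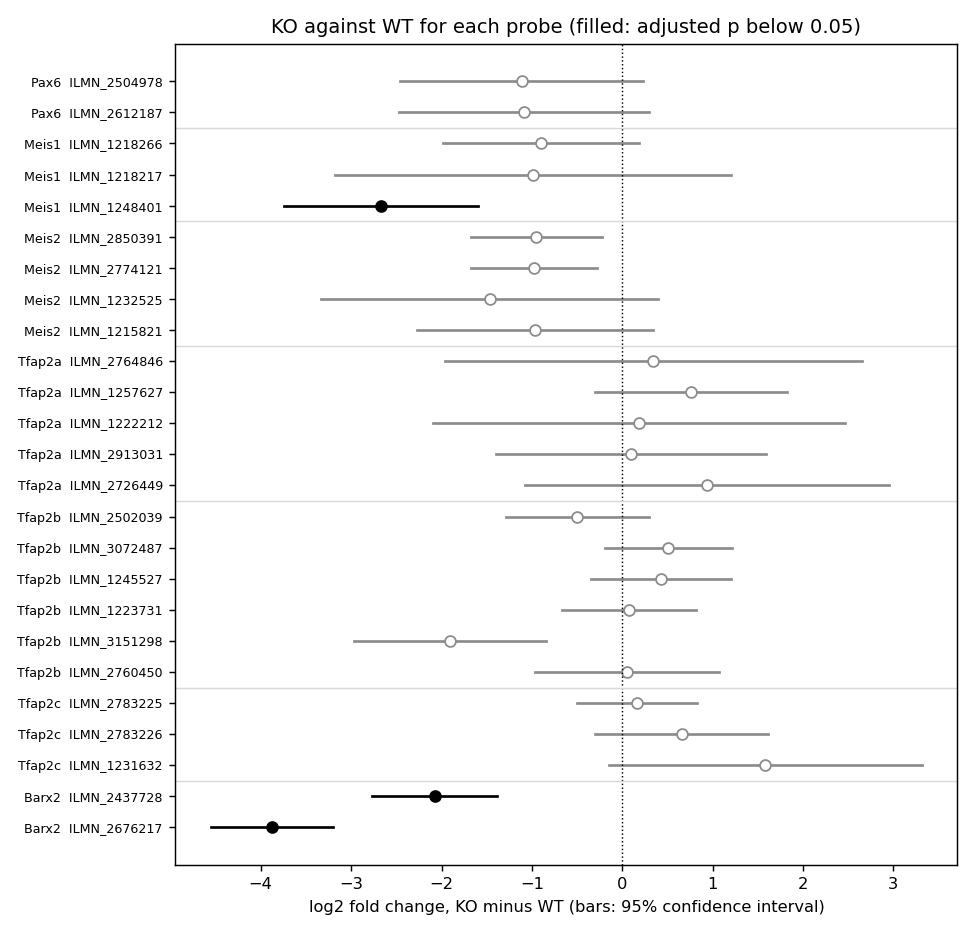
Log2 fold change of KO minus WT for each probe, with its 95% confidence interval, from the fit in which every probe was an item. Filled points passed an adjusted p of 0.05: both Barx2 probes at -2.08 and -3.87 and the Meis1 probe ILMN_1248401 at -2.67.

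Pax6 was read by 2 probes on the same transcript record, and its KO values lay lower than its WT values with both, without passing the test. The brighter probe, ILMN_2504978, read 10.23, 10.29 and 8.43 in KO embryos A, B and C, against 10.74, 10.85 and 10.71 in WT embryos A, B and C. KO embryo C stood lowest, and the groups did not overlap. The log2 fold change was -1.11 (SE 0.55, 95% confidence interval -2.46 to 0.23), with an adjusted p = 0.34 in limma. Without KO replicate C it was -0.51 (adjusted p = 0.29), so the size rested on that embryo.

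The other Pax6 probe, ILMN_2612187, read 7.66, 9.51 and 9.57 in KO embryos A, B and C, against 10.15, 9.91 and 9.95 in WT. Here KO embryo A stood lowest, and not C, and the groups again did not overlap. Its log2 fold change was -1.09 (SE 0.57, adjusted p = 0.38 in limma with every probe tested), and without KO replicate A it was -0.46. Before any correction, the first probe had a scanner signal of 335 with a bead standard error of 14.1 on KO array C, against 2101 and 81.4 on WT array C. The second had 230 with a bead standard error of 8.64 on KO array A, against 1392 and 82.2 on WT array A. The low readings fell in different embryos for the 2 probes.

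The difference between both Pax6 probes varied with an SD of 1.85 over the KO embryos and 0.17 over the WT embryos. Over 1561 genes with at least 2 probes detected on all 6 arrays, the SD of the difference between a gene's brightest pair of probes had a median of 0.75 in KO and 0.29 in WT, and it was larger in KO for 80.9% of them. The corresponding SDs were 2.13 and 0.06 for Meis1, 2.55 and 0.40 for Tfap2a, 0.53 and 0.25 for Tfap2c, 0.36 and 0.12 for Tfap2b, and 0.17 and 0.05 for Meis2, in KO and WT in that order.

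**Figure D3:**
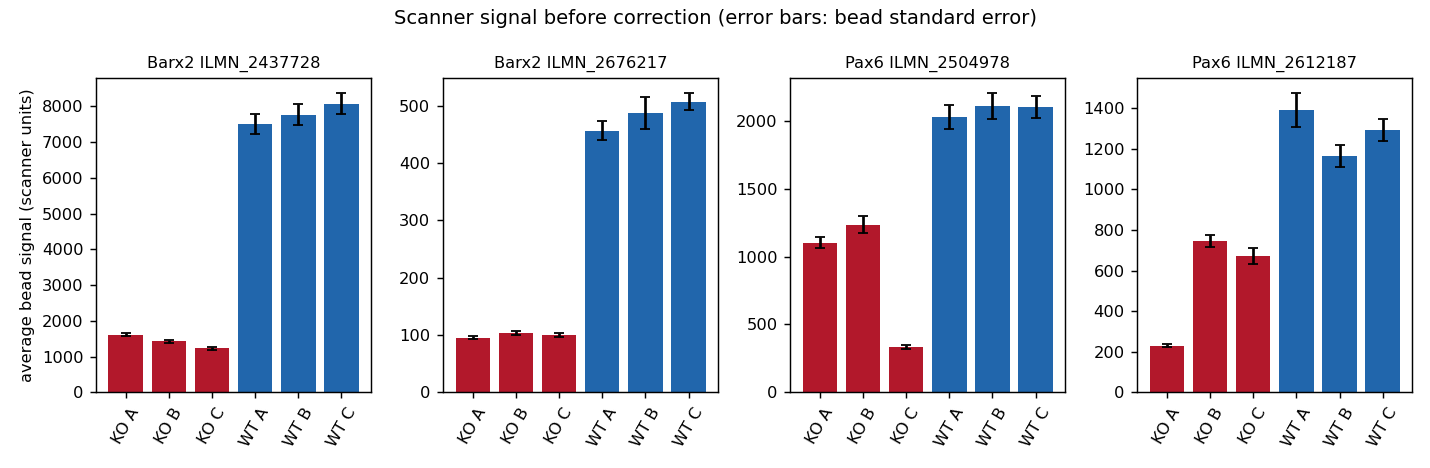
Average bead signal of the Barx2 and Pax6 probes on each array, in scanner units before background correction and normalisation, with the standard error over beads as error bars; KO arrays are on the left in red and WT arrays on the right in blue. All KO bars lie lower than all WT bars in each panel, and the lowest Pax6 bar is KO C with ILMN_2504978 and KO A with ILMN_2612187.

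The 250 bases before the first annotated start of Pax6 are shown because this gene's control region drives Cre in the KO embryos and because AP-2 factors are among the genes followed. They lie at chr2:105668646-105668895 of GRCm38.p6, plus strand, in RefSeq, which held a window for 5 of the 7 genes. Capitals mark the letters GCCNNNGGC of the AP-2 motif, searched on both strands, with no overlap with another match.
Pax6: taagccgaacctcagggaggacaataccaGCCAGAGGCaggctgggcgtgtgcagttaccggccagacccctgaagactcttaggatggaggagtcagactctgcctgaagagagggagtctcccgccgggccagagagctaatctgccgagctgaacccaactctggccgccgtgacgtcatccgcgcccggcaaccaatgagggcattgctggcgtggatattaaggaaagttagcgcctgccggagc
The match lies 221 to 213 bases before the start, and 13.7% of the 32851 windows of this length hold at least 1. The MEIS letters TGACAG, searched on both strands, are not in this window, and 15.9% of windows hold them. Of the 2 windows held for Pax6 only this one is shown, and sites elsewhere, such as in an enhancer, were not looked for. A match of letters is a description of the window and not a measured binding site.

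The 5 genes with 1 plain symbol whose profile was most like that of Pax6 over the 6 arrays, by the root mean square difference of log2 values centred on each gene's mean, were Itpk1 (0.08), Pus10 (0.13), Poglut2 (0.15), Usp1 (0.16) and Sox9 (0.18). Sox9, an SRY-box factor of epithelial buds, read 12.36, 12.73 and 10.77 in KO embryos A, B and C, against 12.93, 12.72 and 12.97 in WT. With this probe it shared the low value in KO embryo C, and its groups overlapped. The log2 fold change of -0.92 did not pass (adjusted p = 0.42 in limma) and was -0.33 without KO replicate C. With the mean of its 2 kept probes Sox9 was at -1.61 (adjusted p = 0.067 in limma). None of the 5 passed. The likeness was found for 1 Pax6 probe and includes that probe's low reading in KO embryo C.

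Read by the brightest probe of each gene, Meis2 was more uniform among the KO embryos than Meis1, which did not hold for all Meis2 probes. Its brightest probe, ILMN_2850391, read 11.10, 11.37 and 10.84 in KO embryos A, B and C, against 12.08, 11.99 and 12.09 in WT. The groups did not overlap, and the spread was small in both, with SDs of 0.26 in KO and 0.05 in WT (n = 3 each). The log2 fold change was -0.95 (SE 0.28, 95% confidence interval -1.63 to -0.27), with an adjusted p = 0.14 in limma, so Meis2 did not pass. With a robust, trended variance model the same value passed (adjusted p = 0.034), and without scaling between arrays it was -1.39 (adjusted p = 0.035).

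A second Meis2 probe of the same transcript record, ILMN_2774121, read 10.47, 10.79 and 10.53 in KO against 11.63, 11.46 and 11.65 in WT. Its log2 fold change of -0.98 was close to that of the first and did not pass (adjusted p = 0.15 in limma with every probe tested), though it passed without background correction (0.042) and without scaling between arrays (0.029). Both other Meis2 probes are tied to cDNA clone records. ILMN_1215821 read 6.08, 7.69 and 7.94 in KO against 8.18, 8.14 and 8.29 in WT, a log2 fold change of -0.97 (adjusted p = 0.40) that was -0.39 without KO replicate A. ILMN_1232525 read 7.26, 6.23 and 9.09 in KO against 9.15, 8.33 and 9.50 in WT, a log2 fold change of -1.46 (adjusted p = 0.38) that was -0.82 without KO replicate B and -2.25 without KO replicate C. Groups did not overlap for 3 of the 4 probes, against 17.4% of all probes with KO lower, and the probes share 1 gene and the same 6 RNA samples.

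Meis1, the paralog of Meis2, had 3 probes whose values differed in pattern. The brightest, ILMN_1218266, read 9.50, 10.89 and 9.70 in KO embryos A, B and C, against 10.81, 10.84 and 11.14 in WT. KO embryo B lay within the WT range, and the log2 fold change of -0.90 (SE 0.44, adjusted p = 0.33 in limma) did not pass. ILMN_1218217 read 9.70, 7.73 and 5.96 in KO against 8.67, 8.74 and 8.93 in WT, so that KO embryo A stood higher than every WT embryo and KO embryo C lower. Its log2 fold change was -0.98 (adjusted p = 0.62 with every probe tested), and it was -1.94 without KO replicate A and -0.06 without KO replicate C.

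The third Meis1 probe, ILMN_1248401, tied to a cDNA clone record, was detected on 3 of 3 WT arrays and on 0 of 3 KO arrays. Its scanner signal was 102, 92.3 and 94.2 on KO arrays A, B and C, against 324, 191 and 331 on the WT arrays. Its level was 4.37 ± 0.16 in KO and 7.04 ± 0.75 in WT (log2, SD, n = 3 each). After background correction, its WT mean lay 3.15-fold over the mean of each KO array's lowest detected signal, which is not a lower limit for the gene. Its fitted log2 fold change was -2.67 (adjusted p = 0.044 in limma with every probe tested), and -1.02 without background correction. The probe met the filter through the WT arrays alone, where it was high, so the call adds no support for a fall of Meis1. The call did not hold without any 1 of the 6 embryos (adjusted p = 0.058 to 0.22), nor with cyclic loess (0.12), with an offset of 50 (0.073) or without background correction (0.088).

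The AP-2 genes had no called probe among 14. Tfap2a, which in the mouse is needed for lens and ocular surface development, had 5 probes with fitted values of 0.10 to 0.93, of which none passed and all overlapped between groups. Its brightest, ILMN_2764846, read 8.97, 11.21 and 7.25 in KO embryos A, B and C, against 8.78, 8.90 and 8.70 in WT. KO embryo B stood higher and KO embryo C lower than every WT embryo. The log2 fold change was 0.35 (SE 0.96, 95% confidence interval -1.997 to 2.69, adjusted p = 0.88 in limma), turning to -0.26 without scaling between arrays and to -0.69 without KO replicate B, and it was 1.29 without KO replicate C. The next, ILMN_1257627, had a KO mean of 9.23 and a WT mean of 8.47 and a log2 fold change of 0.76 (adjusted p = 0.42). The other 3 probes were each highest in KO embryo A, at 9.26 to 10.55, with KO embryo C lowest of the KO embryos, at 6.86 to 6.93. The wide interval of the brightest probe excludes neither a large rise nor a large fall of Tfap2a. Among the 5 probes the interval of ILMN_1257627 was the narrowest, at -0.31 to 1.82.

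Tfap2b, which acts in neural crest of the anterior eye as well as in ectoderm, had 6 probes that went both ways. The brightest, ILMN_2502039, read 11.01, 10.45 and 11.14 in KO embryos A, B and C, against 11.52, 11.28 and 11.28 in WT. The groups did not overlap, and the log2 fold change was -0.50 (SE 0.31, 95% confidence interval -1.25 to 0.26, adjusted p = 0.44 in limma). It was -0.29 without KO replicate B, and -0.14 with median scaling, where the groups overlapped. ILMN_3151298 read 8.95, 8.25 and 7.52 in KO against 10.36, 10.16 and 9.93 in WT. Its groups did not overlap, but its log2 fold change of -1.91 (SE 0.44) did not pass (adjusted p = 0.095 with every probe tested); it passed without KO replicate A (adjusted p = 0.048) and without scaling between arrays (0.025).

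A pair of Tfap2b probes lay the other way. ILMN_3072487 read 10.72, 10.68 and 10.68 in KO against 10.41, 10.17 and 9.97 in WT, a log2 fold change of 0.51 (adjusted p = 0.41). ILMN_1245527 read 10.22, 10.87 and 10.58 in KO against 10.20, 9.96 and 10.21 in WT, a log2 fold change of 0.43 (adjusted p = 0.53). In both, KO lay higher than WT without overlap, though for ILMN_1245527 KO embryo A was close to WT embryo C, and both overlapped without scaling between arrays. ILMN_1223731 and ILMN_2760450 had log2 fold changes of 0.07 and 0.05, which turned to -0.38 and -0.50 without scaling. These probes, apart from ILMN_2760450, carry the same transcript record in the annotation. The difference between the probes' changes was not tested, and the transcripts they read cannot be placed from the annotation used here.

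Tfap2c, the AP-2 gene of early surface ectoderm and trophoblast, had the smallest spread among KO embryos when each of the 7 genes was read by its brightest probe. Its brightest probe, ILMN_2783225, read 12.02, 12.11 and 12.09 in KO embryos A, B and C, against 11.98, 11.86 and 11.89 in WT. The SDs were 0.05 in KO and 0.06 in WT (n = 3 each), and the groups did not overlap, though KO embryo A was close to WT embryo A. The log2 fold change was 0.16 (SE 0.25, 95% confidence interval -0.46 to 0.78, adjusted p = 0.78 in limma) and turned to -0.31 without scaling between arrays. ILMN_2783226 read 9.05, 10.15 and 9.91 in KO against 9.03, 9.28 and 8.84 in WT, a log2 fold change of 0.66 (adjusted p = 0.44). ILMN_1231632 read 6.34, 8.38 and 7.08 in KO against 5.31, 6.82 and 4.92 in WT, a log2 fold change of 1.58 (adjusted p = 0.31), which was 1.03 without KO replicate B. The interval of the brightest probe leaves room for a change of up to 0.78 log2 units upwards.

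Barx2 was the gene that passed, and its values were even across the embryos of each genotype. Its brighter probe, ILMN_2437728, had scanner signals of 1610, 1432 and 1239 on KO arrays A, B and C, against 7498, 7768 and 8074 on WT arrays A, B and C, with bead standard errors of 39.2 to 46.8 on KO and 285 to 303 on WT arrays. After normalisation it read 10.80, 10.51 and 10.51 in KO against 12.61, 12.70 and 12.73 in WT. All KO values lay far under all WT values, with SDs of 0.17 in KO and 0.06 in WT (n = 3 each). The log2 fold change was -2.08 (SE 0.26, 95% confidence interval -2.72 to -1.43), with an adjusted p = 0.024 in limma.

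The second Barx2 probe, ILMN_2676217, of the same transcript record, was detected on 3 of 3 WT arrays and on 0 of 3 KO arrays. Its scanner signals were 95.6, 103 and 99.9 on KO arrays A, B and C, against 457, 487 and 507 on WT arrays A, B and C. After background correction, its WT mean lay 7.60-fold over the mean of each KO array's lowest detected signal. That is not a lower limit for the gene, whose brighter probe had a log2 fold change of -2.08. The adjusted p of ILMN_2676217 was 0.0062 in limma with every probe tested, and 0.0029 to 0.095 over its alternatives. The fitted log2 fold change of -3.87 depends on how background is treated, being -1.78 without background correction. The probe met the filter through the WT arrays alone, so its call adds no support to that of the brighter probe.

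Relative to the median of all tested items, which moved with the scaling, Barx2 was lower by a log2 fold change of -1.99 with quantile normalisation, -1.41 with median scaling, -2.23 with cyclic loess and -1.72 without scaling. The call was lost when WT replicate A, B or C was left out (adjusted p = 0.14 to 0.15), while its log2 fold change stayed at -2.11 to -2.05, and it was kept without any 1 KO replicate (adjusted p = 0.029 to 0.033). Relative to that median of all items, Pax6 lay at -1.05 to -0.58, Meis1 at -0.85 to -0.31 and Meis2 at -1.08 to -0.28 over the scalings, and Tfap2b at -0.41 with quantile normalisation but 0.17 with median scaling.

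**Figure D4:**
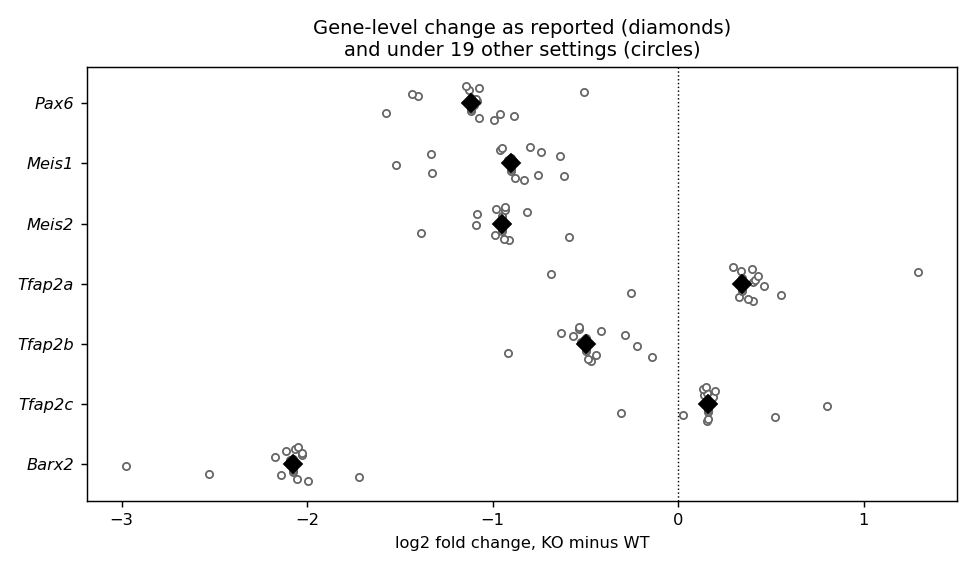
Log2 fold change of KO minus WT for each gene as reported, drawn as a diamond, and under each of 19 other settings, drawn as circles, including other scalings and leaving out each embryo. Barx2 stayed between -2.98 and -1.72 and Pax6, Meis1, Meis2 and Tfap2b stayed negative, while Tfap2a turned to -0.26 without scaling between arrays and -0.69 without KO replicate B, and Tfap2c to -0.31 without scaling.

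The 5 genes most like Barx2 by the same measure were Tigd2 (0.12), Rtn1 (0.15), Nr2c1 (0.16), Fabp7 (0.16) and Dctpp1 (0.16). Their lower KO values follow from the choice by likeness to Barx2 and are given with no test. Dctpp1, a nucleotide pyrophosphatase, was the one detected on all KO arrays, reading 7.87, 7.97 and 7.66 in KO against 9.57, 9.88 and 10.06 in WT. The probes of the other 4 were detected on 0 of 3 KO and 3 of 3 WT arrays, and the size of their difference depended on the background step, Tigd2 for example being at -2.16 on the log2 scale with it and -0.70 without, and Rtn1 at -2.11 and -0.71, or -0.66 with the authors' processed values.

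Of the partners that MEIS proteins work with, 7 of 9 listed genes were tested, of which 1 fell, 0 rose and 6 did not pass. Among all tested items, 1.59% were called lower and 0.826% higher. The median log2 fold change of the partners was -0.82, against -0.09 over all tested items. Pknox2, a homeodomain protein of the same TALE class, was called lower in KO, with a log2 fold change of -2.42 (adjusted p = 0.030 in limma). Its probe was detected on no KO array and on 3 of 3 WT arrays and met the filter through the WT arrays alone, so the call is a description. The size depended on the background step, being -1.49 with an offset of 50 and -0.90 without background correction. Others of its 6 probes were detected on 2 of 3 KO arrays. Its values were 4.30, 4.39 and 5.17 in KO, against 7.09, 7.05 and 6.98 in WT. The call was lost with the mean of its 2 kept probes (log2 fold change -1.08, adjusted p = 0.093), with a robust, trended variance model (0.062), and when WT replicate A, B or C was left out (0.15 to 0.18). Among the PBX partners in DNA binding, Pbx4 was detected on no array.

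Of the AP-2 relatives and cofactors, 4 of 7 listed genes were tested and none passed, with a median of -0.00 on the log2 scale. The largest values belonged to Kctd15, a repressor of AP-2 activity, at 1.71 (adjusted p = 0.14), and to the related Kctd1 at -1.46 (adjusted p = 0.51). Kctd1 read 8.01, 5.53 and 9.92 in KO embryos A, B and C, against 9.48, 9.16 and 9.21 in WT, and its value was -0.32 without KO replicate B and -2.51 without KO replicate C. Kctd15 read 6.85, 6.08 and 7.91 in KO embryos A, B and C, against 5.43, 5.14 and 5.16 in WT, without overlap, and its value was 0.66 without scaling between arrays. Tfap2d and Tfap2e, the remaining AP-2 genes, were detected on no array. Of 9 epithelial genes associated with AP-2 factors, all were tested and none passed, with a median of 0.01. Krt18 and Krt8, paired keratins of simple epithelium, had the largest values at -2.62 (adjusted p = 0.14) and -1.90 (adjusted p = 0.19), and Krt18 read 9.30, 7.88 and 6.22 in KO against 10.43, 10.18 and 10.65 in WT. Krt18 passed without KO replicate A (-3.37, adjusted p = 0.047), and Krt8 was at -1.26 without that embryo.

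Of 15 listed genes of the PAX6 network in ocular ectoderm, 11 were tested and none passed, with 6 negative values and a median of -0.21. The largest were Foxc1, a forkhead factor of the anterior eye and lacrimal gland, at -3.40 (adjusted p = 0.13) and Mab21l1, which acts in lens and eye formation, at 1.86 (adjusted p = 0.061). Foxc1 read 6.42, 4.53 and 8.50 in KO embryos A, B and C, against 10.00, 10.05 and 9.61 in WT, and it passed without KO replicate C (-4.41, adjusted p = 0.038) and without scaling between arrays (-4.01, adjusted p = 0.034). Mab21l1 read 6.61, 6.11 and 7.18 in KO against 4.78, 4.70 and 4.83 in WT, and it passed without KO replicate B (2.13, adjusted p = 0.038), without a filter (adjusted p = 0.050) and with the authors' processed values (adjusted p = 0.042). Otx2 and Foxe3 were detected on no array, and Sox2 on 1 KO and 1 WT array.

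Of the 11 PAX and BAR relatives, 2 were tested and neither passed: Barx1, the paralog of Barx2, at 1.65 (adjusted p = 0.33) and Pax1 at 1.26 (adjusted p = 0.20). Barx1 read 6.44, 8.69 and 5.85 in KO against 5.39, 5.93 and 4.71 in WT, and the groups overlapped. Barx1 was at 0.80 without KO replicate B, and at 0.61 without scaling between arrays, where Pax1 was at 0.46.

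Of 5 matrix and adhesion genes associated with BARX2, 2 were tested, and 1 fell, against 1.59% of all tested items called lower. Ncam1, a neural cell adhesion molecule whose gene BARX2 binds in the mouse, read 5.94, 4.57 and 4.81 in KO embryos A, B and C, against 7.95, 8.16 and 8.15 in WT. This probe was detected on 1 of 3 KO arrays, and any of its 4 probes on 2, and its values in KO embryos B and C lay under the dimmest detected probe of those arrays (5.36 and 5.39), which leaves uncertain the size of its log2 fold change of -2.98 (SE 0.43, adjusted p = 0.031 in limma). With the mean of its 2 kept probes it was -1.69 (adjusted p = 0.0495). The probe called for Ncam1 was detected on 3 of 3 WT arrays, enough by themselves to meet the filter, so its call is a description. The call was lost when WT replicate A, B or C was left out (adjusted p = 0.16 to 0.17) and with a robust, trended variance model (0.055). The remaining tested gene, named after its values were seen, was Mmp2, a matrix metalloproteinase that degrades type IV collagen. It read 7.95, 7.32 and 4.33 in KO against 8.43, 8.13 and 8.44 in WT and did not pass (-1.80, adjusted p = 0.36). Mmp3, Mmp9 and L1cam were detected on no array.

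**Figure D5:**
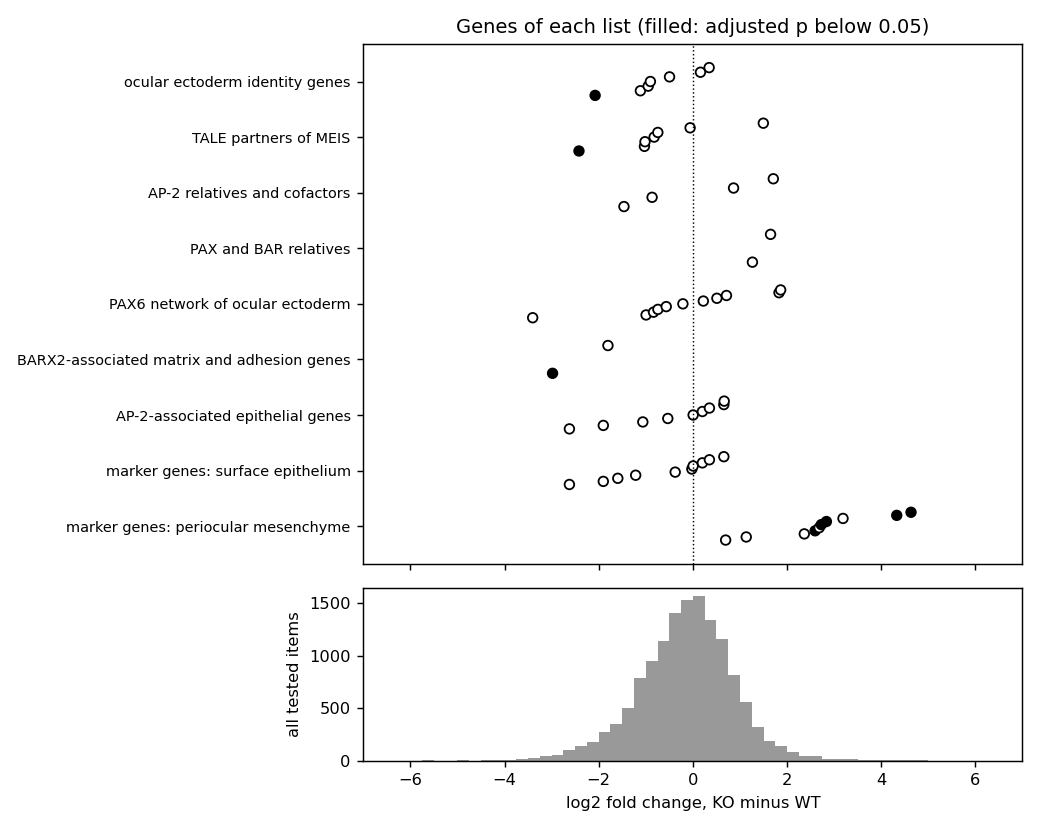
Log2 fold change of KO minus WT for the 7 genes, the lists of related genes and 2 marker lists in the upper panel, and for all 13916 tested items in the lower panel as a histogram. Filled points passed an adjusted p of 0.05, and of the 7 genes Barx2 at -2.08 alone did so, beside Pknox2, Ncam1 and 5 of 10 mesenchyme markers.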

How the data were processed

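Intensity values were deposited as an average bead signal per probe on a linear scale with its bead standard error, the number of beads as other values, and detection p-values, per the file headers; they were not background-subtracted or scaled. The submitters' processing notes name GenomeStudio, with no version. A second table of the authors' processed intensity values, of unknown scaling and centring (medians 9.03 to 9.05), was used as an alternative, with values under 0 set to 0.

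Signals were corrected and quantile-normalised with neqc (limma 3.58.1, R 4.3.3, offset 16, background inferred from detection p-values). Probes with detection p below 0.05 on at least 3 of 6 arrays were kept, 20853 of 45281. The brightest kept probe stood for each gene, leaving 13916 items, 10418 with a symbol; 34885 probes had 1 symbol, 18 several and 10378 none. KO was compared with WT by lmFit and eBayes, with genotype alone and Benjamini-Hochberg adjustment. The fit was tested on simulated data. As alternatives, each embryo was left out in turn, the replicate letter was a block, the authors' values were used, and the scaling, offset, background step, dim-probe filter, choice of probe, weights of arrays and variance model were changed singly. Summed marker intensities used the brightest probe of each gene, back on the linear scale without the offset. Named were all 7 genes, Fgfr2, called members of each list (otherwise the 2 with the largest change) and the 5 genes most like Pax6 and each called gene. Members and lists were chosen with earlier results of these data known. The labels do not say whether replicate letters pair embryos. Same-letter deviations correlated at -0.03 to -0.00, which cannot decide this because the KO arrays varied widely among themselves. The labels do not say whether embryos shared a litter. Within a genotype, 59.0% to 79.9% of probes detected on both arrays of a pair differed beyond bead error. All arrays were on 1 slide. Precision is limited by how few arrays there are. Figures used matplotlib 3.10.9.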

Additional observations from a re-analysis of the deposited data

How the results depend on the processing

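The count of called items, 336 as reported (65.8% lower), was 784 with median scaling (86.5% lower), 2068 without scaling (95.8%), 245 with cyclic loess (51.8%), 660 without a filter, 189 with detection p below 0.01 on all 6 arrays and 185 with array weights. The median of all items moved by -0.22 with median scaling, 0.18 with cyclic loess and -0.72 without scaling. Leaving out 1 embryo gave 12 to 563 items: 12 without WT replicate A, 19 without B and 28 without C. With the letter as a replicate block limma called 0 items, with 2079 at an unadjusted p below 0.05 (2702 without the block), and Barx2 was at -2.08 (adjusted p = 0.18).

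Of the 7 genes, 1 was called as reported, 2 without scaling and 2 with a robust, trended variance model, the second being Meis2 at -1.39 and -0.95, 0 with the replicate block, and 0 to 1 without 1 embryo. Barx2 without 1 embryo was at -2.17 to -2.03. Tfap2a turned to -0.26 without scaling and to -0.69 to 1.29 without 1 embryo, negative without KO replicate B; Tfap2c turned to -0.31 without scaling. Of the 25 probes, 3 were called, 6 without scaling and 0 to 3 without 1 embryo. The lists held 2 called genes, 6 without scaling, 4 without a filter, 1 with the mean of a gene's probes, 0 with the strict filter, the trended model or the replicate block, and 0 to 4 without 1 embryo. Usp1 turned to 0.11 with the mean of its probes, and Fgfr2 to -0.0065 with cyclic loess and -0.32 without scaling. The cause of these moves was not tested. Alternatives for single probes were chosen after seeing the data. Probes near background limit the size of a fold change.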
